A study of Mus musculus with 8 samples.

Results

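The genes that make and use microRNAs were followed in the mouse hippocampus after a hairpin for a single microRNA had been delivered by virus. They are the 10 genes Ago1, Ago2, Ago3, Ago4, Drosha, Dgcr8, Dicer1, Xpo5, Tnrc6a and Tnrc6b. They were chosen by name for their place in the pathway a virally expressed hairpin enters, out of 40659 genes in the count table, and all 10 were measured in all 8 libraries. PolyA RNA of whole hippocampi was sequenced from male C57BL/6JRj mice, 4 that received the rAAV hpCTL and 4 that received the rAAV hp708. Both viruses carry EGFP behind the human synapsin promoter, which drives expression in neurons, with a hairpin in the 3'UTR of EGFP. The hairpin of hp708 overexpresses miR-708-5p and that of hpCTL is a control, so both groups carry a vector hairpin and no library came from an uninjected mouse. Dorsal and ventral hippocampus were injected at postnatal week 7 to 8 and tissue was taken 4 weeks later, at an age the labels give as 12 to 13 weeks. Each library is 1 mouse.

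In this pathway the nuclear RNase Drosha, held by its partner Dgcr8, cuts the primary microRNA transcript into a hairpin. Exportin-5, the product of Xpo5, carries the hairpin to the cytoplasm, where Dicer trims it to a short duplex. One strand of the duplex is loaded into an Argonaute protein (Ago1 to Ago4), of which Ago2 is the main slicer of well matched targets. The GW182 proteins (Tnrc6a, Tnrc6b and the further paralogue Tnrc6c) bind Argonaute and bring in the deadenylases that shorten the poly(A) tail of the target. Neurons use the same machinery at the synapse, and Xpo5 and the Argonautes are known as steps that an abundant vector hairpin can occupy.

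The mature microRNA that hp708 was designed to raise is shown with its seed (bases 2 to 8 from the 5′ end) in capitals, since the seed defines the sites searched for in the members' own mRNAs. The sequence is from RefSeq (GRCm38.p6).
mmu-miR-708-5p: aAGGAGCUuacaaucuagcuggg
PolyA sequencing does not capture this product, and Mir708 had 0 counts in all 8 libraries, which allows up to 3 counts per library for counting error only. The libraries therefore hold no direct check of the overexpression.

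Sites for this seed were looked for on the sense strand of the longest annotated 3'UTR of each member in GRCm39. A 7mer-m8 site is the complement of the seed (AGCTCCT), an 8mer is this site followed by A (AGCTCCTA), and a 7mer-A1 site is GCTCCTA without the further match at base 8. Of the 10 members, 5 held at least 1 site, 9 sites in all, with 3 in Ago3, 2 each in Ago1 and Ago2 and 1 each in Dgcr8 and Tnrc6b. None of the 9 was an 8mer. Ago4, Drosha, Dicer1, Xpo5 and Tnrc6a held none in this window. Among 14815 tested genes with an annotated 3'UTR, 26.5% held a site, and the members have long 3'UTRs, with a median of 3831 bases against 1864. Among the 3022 tested genes with a 3'UTR of at least 3500 bases, 49.5% held a site, as did 5 of the 7 members of that length. A match is a description of the sequence and does not show that the site is used.

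The 6 sites that match all of seed bases 2 to 8 are printed because they are the longest matches in the members. Each is given with the 3'UTR sequence that would lie opposite the 23 bases of the microRNA, the site in capitals, in the sense of the mRNA.
Ago3 position 718, chr4:126238542-126238564, minus strand: tatgtccctattcctAGCTCCTt
Ago3 position 746, chr4:126238514-126238536, minus strand: cacacaggagtcctcAGCTCCTg
Ago1 position 3485, chr4:126329804-126329826, minus strand: tctcaactgcgacatAGCTCCTc
Ago2 position 5332, chr15:72973418-72973440, minus strand: gtgatctggggccgcAGCTCCTc
Ago2 position 6569, chr15:72972181-72972203, minus strand: ctaaaaggttgaatgAGCTCCTg
Tnrc6b position 4398, chr15:80818060-80818082, plus strand: aggctcctgcttctcAGCTCCTg
All 6 lie in 3'UTR exons, and positions count from the first base after the stop codon. The fitted log2 fold change, hp708 over hpCTL, lay between -0.03 and 0.13 for the 5 members with a site and between -0.02 and 0.15 for the 5 without one. The 2 ranges overlap over nearly their whole length. Ago3, with the most sites, had the lowest value of the 10, and that value was within 1 SE of 0.

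None of the 10 members passed the test for a difference between the groups. Levels are given as CPM, the counts of a gene per 1e+06 counts of its library, scaled for library composition by TMM, and differences as log2 fold changes from the quasi-likelihood test of edgeR, fitted with 3 surrogate variables (unlabelled variation between libraries, estimated from the counts), adjusted over all 17252 genes tested. All 10 members passed the filter on low counts. Their adjusted p lay between 0.632 and 0.974, and 0 of 10 were called at an FDR below 0.05, where 0.0058% of all genes tested were called. At an unadjusted p below 0.05 there was 1 of 10, against 7.7% of all genes tested, and without surrogate variables 0 of 10, against 1.81%. A likelihood ratio test with 3 surrogate variables called 0.736% of all genes at an FDR below 0.05, again with none of the members. With 4 mice a group the spread between libraries limits what could be seen, and a p above the threshold does not show equal levels: the 95% intervals of the 10 folds reached from 0.842 to 1.22, and without surrogate variables from 0.819 to 1.45.

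The libraries held between 22606824 and 28462428 counts, and the members between 374 and 3917 counts per library. Neuronal transcripts were abundant in all 8, with Snap25, a presynaptic SNARE protein of neurons, at 1970 to 2440 CPM and Camk2a, a kinase of excitatory neurons, at 2580 to 4210 CPM. Neuron, astrocyte, oligodendrocyte, microglia, endothelium, choroid plexus, interferon and subiculum marker lists had permutation p between 0.143 and 0.771 for hp708 against hpCTL. None of their genes was called, where 0.0058% of all genes tested were. Differences in mean log2 CPM ran from -0.488 for the subiculum list to 0.64 for the choroid plexus list. The subiculum list was at 2.99 to 4.25 in hp708 and 3.98 to 4.22 in hpCTL. These p values do not show equal cell makeup. In whole tissue, fewer cells of a type and less RNA per cell cannot be told apart. Animal 1602, hp708 replicate 1, is an hp708 mouse by its labels while the study's own animal list for another assay puts it with hpCTL, and log2 fold changes without it are given for each member.

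Among the Argonautes, Ago2, the slicer and the highest of the 4 in CPM in each library, had 90.4, 145, 146 and 137 CPM in hpCTL replicates 1 to 4 and 139, 109, 167 and 159 CPM in hp708 replicates 1 to 4. hpCTL replicate 1 was the lowest of the 8 and hp708 replicates 3 and 4 lay above all hpCTL libraries, so the groups overlapped. Group means were 130 ± 26.5 CPM in hpCTL and 144 ± 25.8 CPM in hp708 (SD, n = 4 each), a log2 fold change of 0.13 (SE 0.06, adjusted p = 0.667 in edgeR's test). Without hpCTL replicate 1 that value was 0.02 (0.01 without surrogate variables). Ago1, which binds microRNAs but slices poorly, followed Ago2 from library to library, with 79.0, 97.7, 102.3 and 103 CPM in hpCTL and 103, 80.6, 115 and 115 CPM in hp708. Its log2 fold change was 0.11 (SE 0.05, adjusted p = 0.651 in edgeR's test), and 2 hp708 libraries lay above the hpCTL range while hp708 replicate 2 lay beside the lowest hpCTL library.

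Ago3, the Argonaute with the longest 3'UTR of the 4, had 55.1, 77.4, 73.5 and 73.5 CPM in hpCTL and 67.3, 63.2, 79.9 and 64.0 CPM in hp708. The groups overlapped almost fully, at 69.9 ± 10.02 and 68.6 ± 7.73 CPM (SD, n = 4 each), with a log2 fold change of -0.03 (95% interval -0.25 to 0.19). Ago4, the least abundant member, had 14.4, 18.6, 18.4 and 18.6 CPM in hpCTL and 18.01, 17.7, 18.2 and 15.4 CPM in hp708. All 4 hp708 libraries fell inside the hpCTL range, and the log2 fold change was -0.02 (95% interval -0.25 to 0.21). Ago3, Ago1 and Ago4 are neighbours on the minus strand of chromosome 4 (GRCm39), at 126225496-126323362, 126328805-126362498 and 126383334-126427406, and Ago2 is on chromosome 15 at 72967693-73056784, also on the minus strand.

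**Figure D1:**
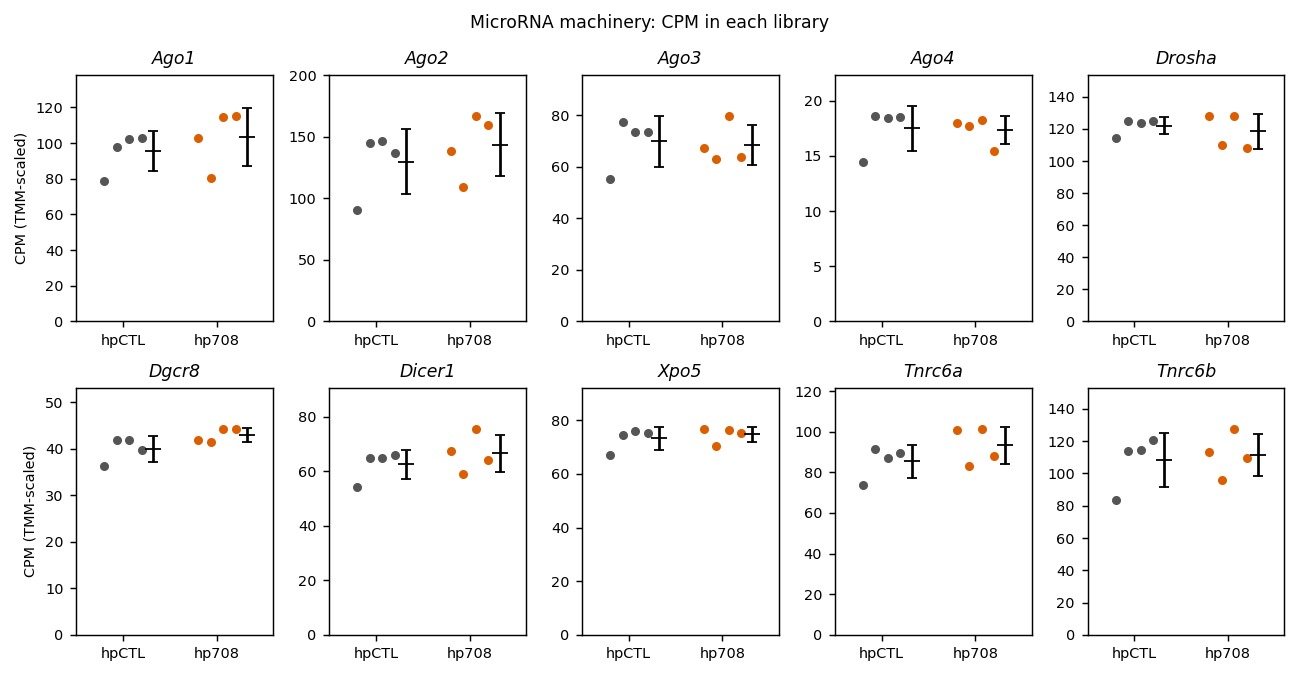
CPM of the 10 members in each library, hpCTL in grey and hp708 in orange, in replicate order from left to right, with the group mean and SD (n = 4) in black. The groups overlap in every panel, and the first hpCTL library is the lowest hpCTL point in all 10.

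Among the processing enzymes, Drosha had 114, 125, 124 and 125 CPM in hpCTL and 128, 110, 128 and 108 CPM in hp708. The hp708 libraries split, with replicates 1 and 3 above and replicates 2 and 4 below the whole hpCTL range, and the log2 fold change was -0.01 (SE 0.06). Dgcr8, the RNA-binding partner of Drosha, had 36.2, 41.9, 42.0 and 39.7 CPM in hpCTL and 41.9, 41.5, 44.2 and 44.2 CPM in hp708. Only hp708 replicates 3 and 4 stood above the hpCTL libraries, and the log2 fold change was 0.09 (SE 0.05, adjusted p = 0.736 in edgeR's test). Dgcr8 shares 27.3% of its exonic bases with Trmt2a on the opposite strand, and whether reads were counted by strand is not given in the sources used here, so part of its counts is uncertain.

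Dicer1 encodes the RNase that frees the duplex from the hairpin loop. It had 54.4, 64.8, 65.1 and 65.9 CPM in hpCTL and 67.5, 59.2, 75.6 and 64.3 CPM in hp708. hp708 replicates 1 and 3 were higher and replicates 2 and 4 lay within the hpCTL range, with a log2 fold change of 0.10 (SE 0.06, adjusted p = 0.756 in edgeR's test). Xpo5, the hairpin exporter, was the steadiest of the 10 members, between 67.0 and 76.7 CPM over the 8 libraries, a ratio of 1.145 between the highest and the lowest. Its group means were 73.2 ± 4.18 CPM in hpCTL and 74.7 ± 2.87 CPM in hp708 (SD, n = 4 each), with a log2 fold change of 0.03 (95% interval -0.07 to 0.13).

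Among the GW182 scaffolds, Tnrc6a had the lowest p of the 10 members, with 73.6, 91.3, 87.1 and 89.5 CPM in hpCTL and 101, 83.2, 101 and 87.8 CPM in hp708. hp708 replicates 1 and 3 were above all hpCTL libraries and the other two were not. The log2 fold change was 0.15 (95% interval 0.01 to 0.29), with an unadjusted p of 0.0386 and an adjusted p of 0.632 in edgeR's quasi-likelihood test, and an exact permutation test of the 8 values (two-sided) gave p = 0.257. Tnrc6b had 83.6, 114, 115 and 121 CPM in hpCTL and 113, 95.9, 128 and 109 CPM in hp708, with only hp708 replicate 3 above the hpCTL range and a log2 fold change of 0.05 (95% interval -0.12 to 0.21). Tnrc6c, the remaining paralogue, is not 1 of the 10 and had 85.4 to 117 CPM in hpCTL and 87.4 to 137 CPM in hp708, with a log2 fold change of 0.15 (SE 0.06, adjusted p = 0.642 in edgeR's test).

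Of the 10 members, 7 had a log2 fold change above 0 and 3 below, with a median of 0.07, and 46.8% of all genes tested lay above 0, with a median of -0.01. None of the 10 had groups that did not overlap in CPM, where 1.51% of all genes tested had such groups. The share of all genes with an unadjusted p below 0.05 that were also higher in hp708 was 2.82% of those tested, and Tnrc6a is the only member of that kind. Exact permutation tests of the members' log2 CPM, two-sided over 70 assignments with 0.0286 as the smallest p they can give, returned p between 0.143 for Dgcr8 and 0.943 for Ago4.

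Leaving out single libraries moved these values, and by different amounts with and without surrogate variables, which were estimated anew for each set of libraries. Without animal 1602, the log2 fold change of Tnrc6a was 0.0047 with surrogate variables and 0.092 without them, against 0.149 and 0.128 in the full set. Counted as hpCTL, the animal gave Tnrc6a 0.061 and 0.037. Tnrc6a was also at 0.072 and 0.067 without hpCTL replicate 1 and at 0.090 and 0.090 without hp708 replicate 3. For Dicer1 the values without 1602 were 0.0037 and 0.089, against 0.102 and 0.091, and with 1602 as hpCTL 0.066 and 0.063. Dicer1 also stood at 0.027 and 0.034 without hpCTL replicate 1, and at 0.026 and 0.029 without hp708 replicate 3. For Ago1 the values without 1602 were 0.037 and 0.119, against 0.109 and 0.114, and for Ago2 0.014 and 0.167, against 0.127 and 0.147, so the 2 fits moved in opposite directions. Without hpCTL replicate 1, Ago1 was at 0.082 and 0.036. Leaving out other libraries raised values in 1 or both fits. Without hp708 replicate 2, Ago1 was at 0.169 and 0.216, Ago2 at 0.152 and 0.257 and Dicer1 at 0.080 and 0.144. Without hpCTL replicate 2, Ago2 was at 0.228 and 0.204 and Tnrc6a at 0.203 and 0.162. Ago3 was at -0.146 and -0.014 without 1602, Ago4 at -0.120 and -0.026, Drosha at -0.135 and -0.078, and Tnrc6b at -0.078 and 0.039. Xpo5 was at -0.014 and 0.020 without 1602, against 0.030 and 0.029, and Dgcr8 at 0.079 and 0.120, against 0.087 and 0.105. Without hpCTL replicate 1, Xpo5 was at 0.0071 and -0.0069 and Dgcr8 at 0.053 and 0.064. Tnrc6c stood at -0.073 and 0.068 without 1602 and at 0.0063 and 0.0096 with it as hpCTL, against 0.151 and 0.116.

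**Figure D2:**
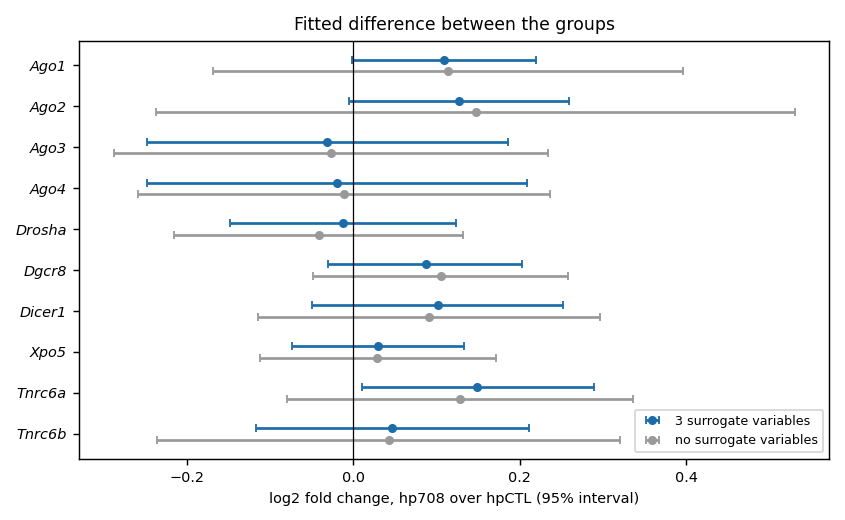
Log2 fold change of each member, hp708 over hpCTL, with its 95% interval, from the fit with 3 surrogate variables (blue) and without them (grey). With 3 surrogate variables only the interval of Tnrc6a, 0.01 to 0.29 before adjustment over all genes, leaves out 0, and without them none does.

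These genes also varied between mice of the same group, and mostly in the same direction. hpCTL replicate 1 was the lowest of the 8 libraries for 9 of the 10 members, the exception being Drosha, and hp708 replicate 2 was among the lowest pair for 8 of 10. hp708 replicate 3 was among the highest pair for 9 of 10. Expressed as the deviation of log2 CPM from the mean of the 8 libraries, the median over the members was -0.27 in hpCTL replicate 1, -0.12 in hp708 replicate 2 and 0.20 in hp708 replicate 3, and between 0.001 and 0.054 in the other 5. Ago2 moved furthest, to -0.57 in hpCTL replicate 1 and 0.31 in hp708 replicate 3. The ratio of the highest to the lowest library was 1.85 for Ago2, 1.53 for Tnrc6b and 1.46 for Ago1, and 1.22 for Dgcr8, 1.19 for Drosha and 1.145 for Xpo5.

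The length of the transcript moved with this variation. The longest annotated transcript of the members has a median of 7.98 kb, from 5.24 kb for Xpo5 to 17.83 kb for Tnrc6b, against 4.37 kb over 14977 protein-coding genes tested. Among protein-coding genes with a longest transcript of at least 6 kb (3693 genes), the median deviation was -0.15 in hpCTL replicate 1, -0.07 in hp708 replicate 2 and 0.07 in hp708 replicate 3. Among those under 2 kb (1534 genes), the same libraries stood at 0.25, 0.11 and -0.12, the opposite order. In hpCTL replicate 1, 76.8% of the genes of at least 6 kb lay below their own mean. The members thus followed the long genes in sign, and lay further out: measured from the median of protein-coding genes of their own length class, the median member stood at -0.13 in hpCTL replicate 1 (10 of 10 members below their class), -0.05 in hp708 replicate 2 (8 of 10 below) and 0.13 in hp708 replicate 3 (1 of 10 below). The class of at least 6 kb, which holds 8 of the 10 members, has no upper limit, so length within it is not matched. Across the 10 members, transcript length and the highest-to-lowest ratio had a Spearman rho of 0.87. Transcript length and the deviation in hpCTL replicate 1 had a rho of -0.84. Both are descriptions over genes that share the same libraries. Marker lists also stood out in the low libraries, as mean log2 CPM. In hp708 replicate 2 the oligodendrocyte list was at 8.55 against 7.61 to 8.12 in the other 7 libraries and the neuron list at 9.004 against 9.08 to 9.21, while the subiculum list was at 3.48, with only hp708 replicate 4 lower at 2.99. In hpCTL replicate 1 the choroid plexus list was at 0.907 against 1.775 to 5.73 in the other 7, and the interferon list was at 3.44, with only hp708 replicate 1 lower at 3.35. The neuron list in hpCTL replicate 1, at 9.16, lay within the range of the other libraries. In hp708 replicate 3, where the median over the members was highest, the choroid plexus list was at 1.775 and the interferon list at 3.68. These lists were thus low in that library as well. Its subiculum list was at 3.73, its oligodendrocyte list at 7.67 and its neuron list at 9.20. The part of transcript length, RNA quality or cell makeup in the members' values was not tested.

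**Figure D3:**
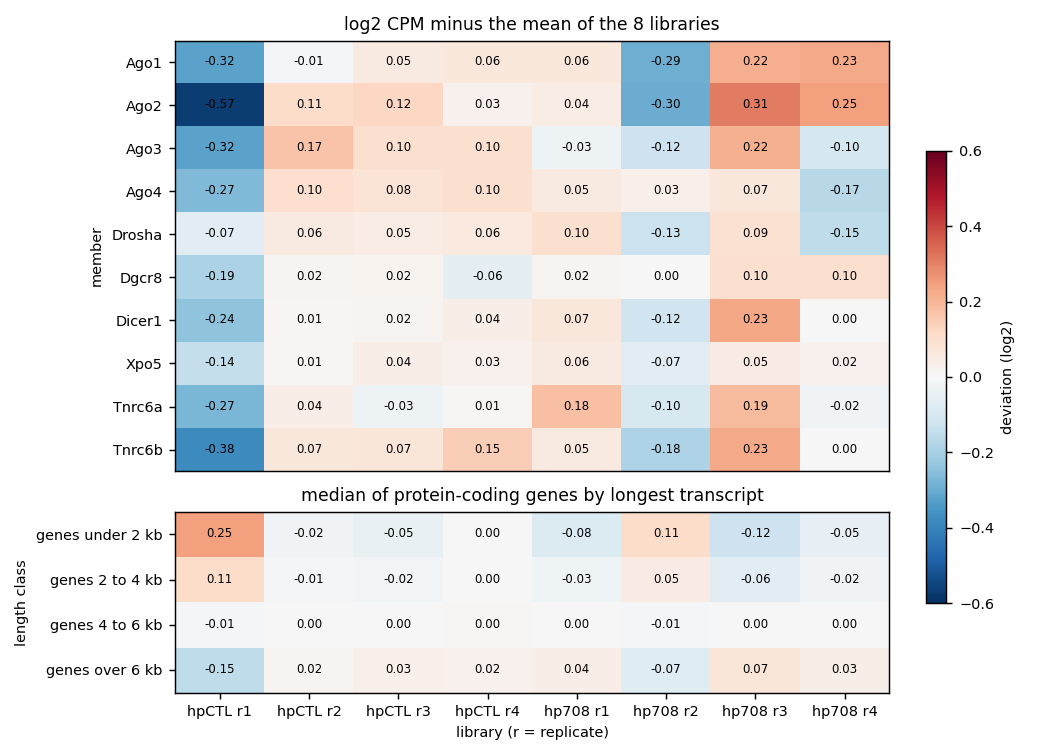
Deviation of log2 CPM from the mean of the 8 libraries, blue below and red above, for the 10 members (upper panel) and as the median of protein-coding genes in 4 classes of longest transcript (lower panel). hpCTL replicate 1 is blue for all 10 members and for genes over 6 kb (-0.15) and red for genes under 2 kb (0.25).

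The members varied together. Over the 8 libraries, all 45 pairs of members had a Pearson r above 0 in log2 CPM, with a median of 0.76 and a range from 0.12 for Drosha with Dgcr8 to 0.95 for Ago1 with Ago2. Of the 45 pairs, 20 passed an exact permutation test at a Benjamini-Hochberg adjusted p below 0.05 by Pearson's r and 0 by Spearman's rho, whose median was 0.62. The lowest r of those 20 pairs was 0.79, and an r of at least that size was found in 2.68% of all 148807126 pairs of genes tested and in 6.68% of the pairs of protein-coding genes with a longest transcript of at least 6 kb, a length that 8 of the 10 members have. The median r was -0.003 over all gene pairs and 0.18 over pairs of the long genes, which had an r above 0 in 62.3%. With group means removed, 26 of the 45 pairs passed, and an r of at least the lowest of these, 0.78, was found in 27 pairs of members, 4.14% of all gene pairs and 9.16% of pairs of the long genes. These shares are a description, since pairs share genes and libraries, and they are not matched for expression level. Ago1 and Ago2 had r = 0.95 (exact permutation p = 0.00102, adjusted p = 0.0153) and rho = 0.76 (exact permutation p = 0.0368, adjusted p = 0.127), and r = 0.83 without the 2 libraries farthest from the median of Ago1, hpCTL replicate 1 and hp708 replicate 2. Dicer1 and Tnrc6b had r = 0.95 (exact permutation p = 0.000818, adjusted p = 0.0153) and rho = 0.86 (exact permutation p = 0.0107, adjusted p = 0.0804), and r = 0.90 without the 2 libraries farthest from the median of Dicer1, hpCTL replicate 1 and hp708 replicate 3. Other pairs rested on such libraries: Ago1 with Ago4 had r = 0.33 (exact permutation p = 0.484, adjusted p = 0.495; rho = 0.14, p = 0.752, adjusted p = 0.787) and r = -0.69 without hpCTL replicate 1 and hp708 replicate 2. Over the 45 pairs the median r without the 2 farthest libraries was 0.49, from -0.69 to 0.97, with 38 above 0, where the libraries left out were set by the first-named gene of each pair. With hpCTL replicate 1 and hp708 replicate 2 left out of every pair, the median r was 0.285 and 35 pairs were above 0. The correlations are over mice of both groups and share depth, composition and the length pattern above.

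Because the total moved with the library, the paralogues were also set against each other within each library, per kb of exon. Ago1 made up 41.3% to 46.0% of the summed Argonaute mRNA, Ago2 30.7% to 36.6%, Ago3 11.0% to 14.4% and Ago4 6.84% to 10.4%. The order was the same in all 8 libraries. Ago2's share was 30.7% in hpCTL replicate 1, 33.2% in hp708 replicate 2 and 33.9% to 36.6% in the other 6. The mean share of Ago3 was 13.8% ± 0.405 in hpCTL and 12.7% ± 1.39 in hp708 (SD, n = 4 each), a difference of -1.04 percentage points with an exact permutation p of 0.229 (adjusted p = 0.8), and hp708 replicate 4 held the lowest share at 11.0%. Without hp708 replicate 2 that difference was -1.58 points, and that of Tnrc6c in its own family 1.32 points, each with an unadjusted exact permutation p of 0.0286, the smallest that 4 against 3 libraries can give. In the GW182 family, Tnrc6a made up 36.7% to 41.2%, Tnrc6c 30.8% to 35.6% and Tnrc6b 25.7% to 29.2%. Over the 7 shares the differences between the groups ran from -1.04 to 1.31 percentage points with exact permutation p between 0.229 and 0.914 (two-sided, adjusted p 0.8 to 0.914), so no share passed the test in the full set. Single libraries moved these differences too: that of Ago2 was 0.221 points without hpCTL replicate 1 and 1.979 without hp708 replicate 2, that of Ago4 was -0.014 without hp708 replicate 4 and -1.195 without hp708 replicate 2, and that of Tnrc6b ran from -1.413 without hpCTL replicate 1 to -0.468 without animal 1602.

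**Figure D4:**
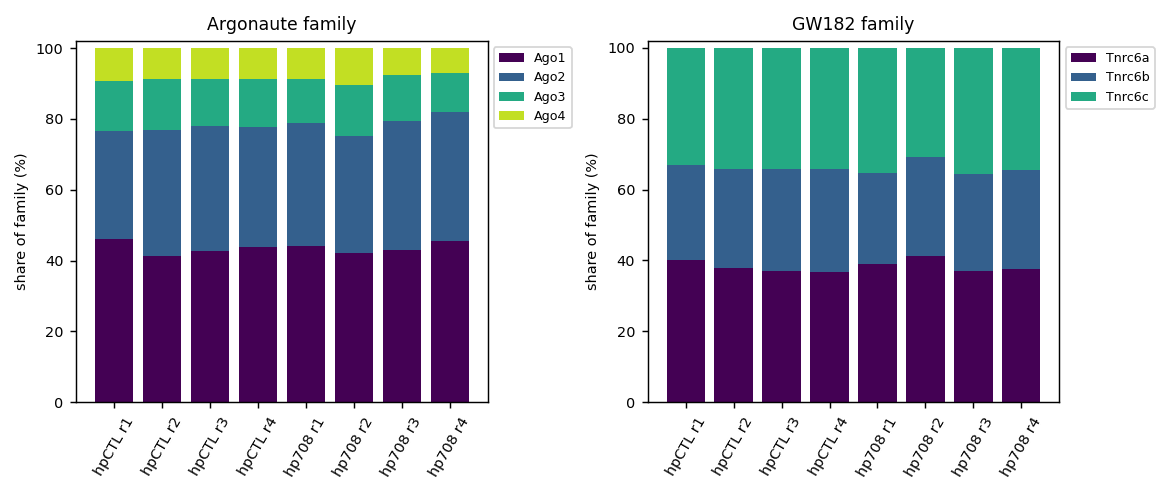
Share of each paralogue in the summed CPM per kb of exon of its family, in percent, for each library, Argonautes on the left and GW182 genes on the right. The stacks keep the same order in all 8 libraries, with Ago1 at 41.3% to 46.0% and Ago4 at 6.84% to 10.4%.

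Levels between the members can be compared only per length. Per kb of exon, Drosha had the highest median of the 8 libraries at 13.4 CPM per kb, followed by Ago1 at 12.45, Ago2 at 10.03, Xpo5 at 9.31, Tnrc6a at 6.03, Tnrc6b at 4.55, Dicer1 at 3.87, Dgcr8 at 3.74, Ago3 at 3.72 and Ago4 at 2.46 CPM per kb. An exact sign-flip test over the 8 libraries (two-sided, smallest p 0.00781, adjusted over 9 neighbouring pairs) separated Ago1 from Ago2, Xpo5 from Tnrc6a, Tnrc6a from Tnrc6b, Tnrc6b from Dicer1 and Ago3 from Ago4, each in the same order in 8 of 8 libraries (adjusted p = 0.0141). Drosha and Ago1 (adjusted p = 0.201), Ago2 and Xpo5 (0.571), Dicer1 and Dgcr8 (0.201) and Dgcr8 and Ago3 (0.664) were not separated. The order depends on the length used: with the longest annotated transcript in place of the exon union, Xpo5 stood above Ago2 by 0.53 on the log2 scale and Dicer1 above Tnrc6b by 0.10, and the other three pairs that had not been separated were. Ago4 stayed the lowest of the 10 and Drosha the highest under both lengths, with medians of 2.71 and 21.1 CPM per kb of longest transcript.

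**Figure D5:**
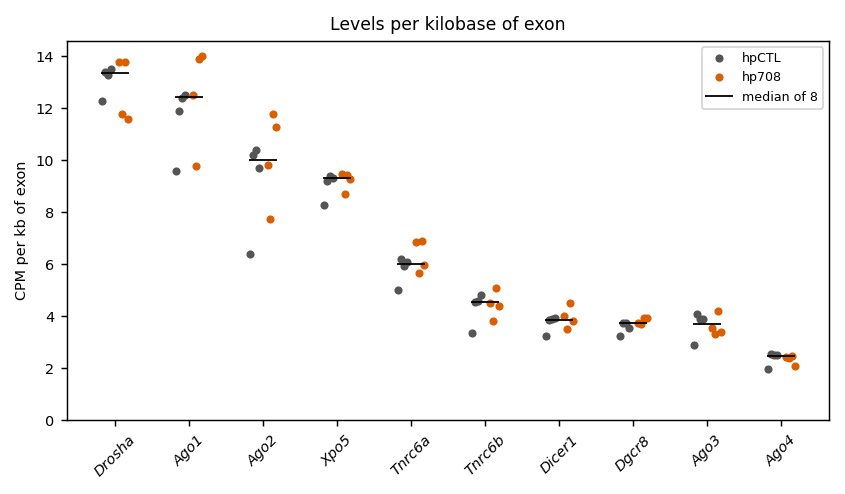
CPM per kb of exon for the 10 members, 1 point per library, hpCTL in grey and hp708 in orange, with the median of the 8 libraries as a black bar. Drosha (13.4), Ago1 (12.45) and Ago2 (10.03) have the highest medians and Ago4 (2.46) the lowest, and the groups overlap at each gene.

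Around the 10 members, 88 further genes of the pathway were followed in 7 lists, and 87 of them passed the filter on low counts. Lin28a, a repressor of let-7 maturation in early development, did not. None of the 87 was called at an FDR below 0.05, where 0.0058% of all genes tested were called. An unadjusted p below 0.05 was found for 5, set against 7.7% of all genes tested. In the fit without surrogate variables 0 of the 87 had such a p, against 1.81% of all genes. Of the 87, 46 were above 0 and 41 below, with a median log2 fold change of 0.006, where 46.8% of all genes tested were above 0. By list, 7 of 11 microprocessor cofactors, 0 of 3 export and Dicer partners and 2 of 11 Argonaute-loading chaperones were above 0. So were 11 of 16 cofactors of the silencing complex and 10 of 19 deadenylase genes. The same held for 8 of 14 decapping and decay genes and 8 of 13 turnover and tailing genes measured. Median log2 fold changes of the 7 lists lay between -0.057 and 0.04.

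The 5 genes below 0.05 were Tnrc6c, described above, and 4 that were lower in hp708. Btg1, an antiproliferative protein that recruits the CCR4-NOT deadenylase, had 41.7, 40.1, 49.9 and 46.5 CPM in hpCTL and 37.0, 46.1, 34.6 and 38.6 CPM in hp708. hp708 replicate 2 lay among the hpCTL libraries and the other three below them, and the log2 fold change was -0.26 (SE 0.08, adjusted p = 0.549 in edgeR's test), the lowest adjusted p of the 87. Its value was -0.137 without animal 1602 and -0.146 with it as hpCTL (-0.158 and -0.112 without surrogate variables). Ncbp2, the cap-binding subunit of the nuclear cap complex, had a log2 fold change of -0.13 and Pabpc1, the cytoplasmic poly(A)-binding protein, -0.15. Hspa8, a constitutive HSP70 chaperone, was at -0.11. Its CPM were 1472, 1103, 1197 and 1113 in hpCTL and 1064, 1258, 1105 and 1051 in hp708. The value of hpCTL replicate 1 was thus above that of every other library, and the groups overlapped. An exact permutation test of Hspa8 (two-sided) gave p = 0.4. Its log2 fold change without hpCTL replicate 1 is not given. Without animal 1602, Ncbp2 was at -0.053 and Pabpc1 at 0.0098 (-0.103 and -0.016 without surrogate variables), and with it as hpCTL at -0.065 and 0.0031. Dis3l2, an exonuclease that degrades uridylated RNAs, was the only one of the 87 with groups that did not overlap in CPM, where 1.51% of all genes tested had such groups (log2 fold change -0.11, adjusted p = 0.762 in edgeR's test), and Hspa8 and Dis3l2 were chosen once their values were known.

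Partners that act directly on the 10 members had fitted log2 fold changes between -0.12 and 0.12. The SE was 0.12 for Tarbp2, 0.09 for Prkra, 0.08 for Mov10 and 0.04 for Zswim8. Tarbp2 and Prkra, the double-stranded RNA-binding partners of Dicer, had 14.8 ± 2.37 and 12.7 ± 1.27 CPM in hpCTL and 13.4 ± 0.982 and 12.0 ± 2.73 CPM in hp708 (SD, n = 4 each), with log2 fold changes of -0.12 and -0.04. Tarbp2 was at -0.0041 without hp708 replicate 3 and at -0.0059 without hpCTL replicate 3. It was at -0.194 without hpCTL replicate 2 (-0.208 without surrogate variables). Prkra was at -0.196 without animal 1602 and at -0.178 with it as hpCTL. Mov10, an RNA helicase bound to Argonaute, had a log2 fold change of -0.10 and adjusted p = 0.802 in edgeR's test, with -0.206 without animal 1602 and -0.045 without hpCTL replicate 2. Zswim8, the ubiquitin ligase adaptor that removes Argonaute during target-directed microRNA decay, had 150, 177, 179 and 178 CPM in hpCTL and 185, 151, 187 and 197 CPM in hp708, with a log2 fold change of 0.08, and 0.018 without animal 1602. Without hp708 replicate 2 its value was 0.128 (0.152 without surrogate variables). Zswim8 was low in hpCTL replicate 1 and hp708 replicate 2, as the members were. Ddx17, an RNA helicase of the microprocessor, had 435 ± 43.6 CPM in hpCTL and 477 ± 23.9 CPM in hp708 (SD, n = 4 each) and a log2 fold change of 0.12 (SE 0.06, adjusted p = 0.685 in edgeR's test), and of 0.051 without hpCTL replicate 1.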

How the data were processed

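The 8 polyA RNA libraries, each from the whole hippocampi of 1 mouse (4 per virus), were analysed. Samples were grouped by their labels and table columns were matched by animal number. Per the submitters' processing notes and the study's methods, the authors aligned reads to GRCm39 with STAR 2.7.8a and counted them per gene with featureCounts 1.6.4, and the deposited table holds raw counts without normalization. The settings for strand and multi-mapped reads are not given in the sources used here, so counts of genes that overlap on opposite strands are uncertain. Totals were 22606824 to 28462428 counts per library. The limit given for a count of 0 covers counting error only. Intervals of fold changes from the fit without surrogate variables include the spread between mice. Those of the reported fit include only the spread left after the 3 surrogate variables, which were estimated from the same libraries. They leave out the error of that estimate. The SE of Ago2, for 1, was 0.056 in the reported fit and 0.172 without surrogate variables. Gene names, exon lengths and 3'UTRs came from a later GENCODE release of the same build, which named 39641 of 40659 identifiers.

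Genes were filtered with filterByExpr, which left 17252. The quasi-likelihood test of edgeR 4.0.16 (run under R 4.3.3 in its edgeR 3 form, after TMM scaling) was used with 3 surrogate variables from sva 3.50.0 and Benjamini-Hochberg adjustment over all genes tested. The threshold was an FDR below 0.05. The study's own threshold, p below 0.01 and FDR below 0.001, was also applied. Each standard error is the log2 fold change divided by the root of its F statistic. Log2 CPM used a prior count of 2. The fit was tested on simulated counts. Single values and family shares were compared by exact permutation, neighbouring levels by exact sign flips (scipy 1.17.1). Levels between genes used the length of the exon union. DESeq2 1.42.0, other numbers of surrogate variables, filters and scalings, leaving out each library, animal 1602 counted as hpCTL, and the replicate number as a block (in place of the surrogate variables) were alternatives. Same-numbered mice did not deviate together (r between -0.041 and 0.018), so the numbers name mice and do not pair them. Nothing says that libraries of 1 group differ in more than the mouse.

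The 10 members, the 7 lists of pathway genes and the marker lists were chosen with earlier results of these data known. Named are the 10 members, Tnrc6c, Tarbp2, Prkra, Mov10, Zswim8, Mir708, and the 3 pathway genes with the lowest p in each direction. The comparisons with genes of the same transcript length and with all pairs of genes were added after the values were seen.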

Additional observations from a re-analysis of the deposited data

Results flagged for a closer look

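Within groups of 4 libraries, 9 of 70 sets of values held 1 library far from the other three by Dixon's criterion, where chance alone would give about 3.5. The sets share libraries and genes and are not independent. Of the 9, 8 concern hpCTL replicate 1. In that library Ago2 had 90.4 CPM against 137 to 146 in the other hpCTL libraries, Ago4 14.4 against 18.4 to 18.6, Drosha 114 against 124 to 125 and Dicer1 54.4 against 64.8 to 65.9 CPM. Among the other pathway genes, Tnrc6c had 85.4 against 113 to 117, Zswim8 150 against 177 to 179 and Ddx17 370 against 452 to 463 CPM. The share of Tnrc6c in the GW182 family was 33.1% there against 34.1% to 34.2%. The ninth is Ago4 in hp708 replicate 4, at 15.4 CPM, where the rest of its group had 17.7 to 18.2. All 9 are low values.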

How the results depend on the processing

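No member and no other pathway gene was called at an FDR below 0.05 or at the study's threshold under any of the 30 other fits. Of all genes tested, 0.0058% were called at that FDR in the reported fit. In the likelihood ratio test with 3 surrogate variables 0.736% were. The share of all genes is not given for the other fits or at the study's threshold, so the absence of calls there cannot be set against it. Fits that changed the filter or the libraries estimated their surrogate variables anew. The reported fit gave 1 member with an unadjusted p below 0.05. That number fell to 0 when no, 1 or 2 surrogate variables were used, in both likelihood ratio tests, in DESeq2 fitted to the groups alone, under a minimum of 10 counts per library, under the replicate block (fitted without surrogate variables, a change that gave 0 by itself), and when 1602 was moved to hpCTL in a fit of the groups alone. It was 2 in the edgeR 4 form of the test and after scaling by DESeq2 size factors, and 0 to 3 when 1 library was left out. For the other pathway genes, 5 as reported, it was 0 in the 3 fits of the labelled groups alone, under a minimum of 10 counts per library and, again with no surrogate variables, under the replicate block. It was 1 when 1 or 2 surrogate variables were used and in the likelihood ratio test that had 3. It was 2 in DESeq2 fitted with all 3 and when 1602 was moved to hpCTL in a fit of the groups alone, 3 after scaling by DESeq2 size factors, and from 0 to 10 over the fits lacking 1 library, the 10 without hp708 replicate 2. The replicate block changed no other call. Of all genes tested, 7.7% had an unadjusted p below 0.05 in the reported fit and 1.81% in the fit without surrogate variables. For the other fits that share is not given, so their counts of members and pathway genes cannot be set against it.

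Members higher in hp708 numbered 5 to 10 when 1 library was left out. Of 140 log2 fold changes of members under the 14 alternatives that kept all libraries, 4 changed sign: Ago3 (0.0067) and Drosha (0.00021) without a filter, and Xpo5 (-5.7e-05) and Tnrc6b (-0.069) under a minimum of 10 counts per library. Tnrc6c (-0.015) did so under that minimum, and the log2 fold change of Pabpc1 was 0.0031 when 1602 was moved to hpCTL and 0.038 when a fit of the groups alone did so. When 1 library was left out, 20 of 160 log2 fold changes of members changed sign. They ran from -0.166 to 0.042 for Ago3, -0.122 to 0.043 for Ago4 and -0.135 to 0.021 for Drosha. Xpo5 ran from -0.014 to 0.056 and Tnrc6b from -0.078 to 0.108. Of 144 values of the other named genes, 4 changed sign. Their ranges were -0.073 to 0.232 for Tnrc6c, -0.196 to 0.058 for Prkra and -0.196 to 0.0098 for Pabpc1. Differences in mean log2 CPM then ran from -0.01 (without hpCTL replicate 1) to 0.279 for Ago2, -0.131 to 0.032 for Ago3, -0.097 to 0.048 for Ago4, -0.012 to 0.058 for Xpo5 and -0.07 to 0.119 for Tnrc6b.

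For family shares in percentage points, moving 1602 to hpCTL gave -0.045 for Ago1, 0.024 for Tnrc6b and -0.504 for Tnrc6c. Leaving out 1 library gave -0.445 to 1.12 for Ago1, -1.581 to -0.459 for Ago3, -0.088 to 1.457 for Tnrc6a and -0.284 to 1.317 for Tnrc6c. The values of -1.581 and 1.317 were without hp708 replicate 2 and had an exact permutation p of 0.0286. By the length of the longest transcript, Ago2 minus Xpo5 was -0.534 and Tnrc6b minus Dicer1 -0.095 on the log2 scale, and Drosha minus Ago1 (0.603), Dicer1 minus Dgcr8 (0.124) and Dgcr8 minus Ago3 (0.443) passed the threshold. Once group means were removed, 26 of 45 pairs passed the test, against 20, and 4.14% of all gene pairs reached the lowest r of the 26. The causes were not tested.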
